A study of Mus musculus with 47 samples.

Results

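The comparison set spermatozoa of 2 KO-F1 libraries against spermatozoa of 2 Ctrl-F1 libraries, which are 4 of the 47 samples of the series and 4 of the 10 samples with a table of gene counts. The libraries were chosen by their labels alone. The Scml2-KO-F1 (KO-F1) males were sons of Scml2-KO(-/y) males and Ctrl-F1 males were sons of wild-type littermates of those males. Both groups were conceived by intracytoplasmic sperm injection (ICSI) with testicular sperm, had the BDF2 background and were 8 to 12 weeks old at sampling. Scml2 is X-linked, so a son does not receive the deleted allele of the father: the KO-F1 and Ctrl-F1 males are both wild type at Scml2, and the groups differ in the genotype of the father. Motile spermatozoa were separated by swim-up, and low-input polyA cDNA libraries were made from their RNA. The methods of the study describe the replicates as independent biological ones, and the labels do not say how many males went into a library. Scml2, which encodes a germline Polycomb-associated protein, had 0 and 18 counts in the Ctrl-F1 libraries and 0 and 4 counts in the KO-F1 libraries, too few for the test across all genes. Since neither group carries the deletion, these counts do not check the labels.

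The 4 libraries held between 1503733 and 2778171 counts, and the 45S ribosomal transcript Rn45s took between 15.7% and 28.7% of them. Log2 values correlated across genes with r = 0.72 between the Ctrl-F1 libraries, r = 0.79 between the KO-F1 libraries and r = 0.62 to 0.66 between groups. The spermatozoon markers Odf1, Akap4, Smcp, Crisp2, Ldhc, Pgk2, Gapdhs and Tnp1 were present in all 4 libraries. Transcripts of the epididymal epithelium, among them Crisp1 and Gpx3, were present in all 4 as well. Intervals on shares of counts cover counting error only, because the cDNA was amplified, and a 95% Wilson interval reached at most 0.0615 percentage points to either side of a share.

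Spermatozoa are nearly silent in transcription. Their RNA is largely what was left from the round spermatid stage, when genes for the flagellum, the acrosome, energy supply and nuclear compaction are transcribed in bulk and stored for later translation. Most of the cytoplasm, with its ribosomes and translation machinery, is then shed, and the cell matures in the epididymis, whose epithelium secretes defensins, protease inhibitors, antioxidant enzymes and vesicles into the lumen.

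In the KO-F1 libraries every sperm class stood below its Ctrl-F1 level, while general metabolism, mitochondrial respiration, ribosomal proteins and part of the epididymal epithelium stood above it. The 350 tested genes of the sperm classes had a median log2 fold change of -1.61, and 320 of them were below and 30 above their Ctrl-F1 level. Their share of all counts was 21.3% and 18.1% in the Ctrl-F1 libraries and 9.01% and 7.62% in the KO-F1 libraries. The metabolic classes took 3.08% and 3.04% of counts in Ctrl-F1 against 11.6% and 6.57% in KO-F1, and the housekeeping classes took 3.42% and 3.08% in Ctrl-F1 against 7.20% and 4.87% in KO-F1. Neither shift left any overlap between the groups. The secreted glutathione peroxidase gene Gpx3, which belongs to the metabolic and the epididymal lists, held much of the first: without it the metabolic classes took 2.26% and 2.33% in Ctrl-F1 against 4.78% and 3.45% in KO-F1, and the ratio of the mean shares was 1.80 in place of 2.97. In bulk RNA, fewer cells of a type and less RNA per cell cannot be told apart.

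Single genes were tested across the whole table. The quasi-likelihood test of edgeR, with the thresholds of a 2-fold change and an adjusted p (Benjamini-Hochberg) below 0.01, called 0 of 10785 genes (0%), although 958 genes were higher and 1147 lower at an unadjusted p under 0.05. With other filters on low counts the same test called more, 200 genes (82 higher and 118 lower) when every library had at least 10 counts and 113 (65 higher and 48 lower) without a filter. DESeq2 at the same thresholds called 125 genes higher (2.5% of the 5000 genes with an adjusted p) and 265 lower (5.3%). Genes are named below as called higher or lower only by this DESeq2 fit. Leaving out a library leaves a group of 1, which is then assumed to vary like the other group, and loses a replicate, so fewer calls follow in part from the smaller design. Without KO-F1 replicate 1 DESeq2 called 1 gene higher, Gpx3, and 36 lower, and without KO-F1 replicate 2 it called 46 higher and 78 lower. Without Ctrl-F1 replicate 1 it called 35 higher and 52 lower, and without Ctrl-F1 replicate 2 it called 76 higher and 107 lower. With 2 libraries against 2, an exact two-sided permutation test of a single gene cannot give a p below 0.333.

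The direction of a single gene also depends on what the libraries are scaled to. Under the scaling used here (TMM) the median log2 fold change of all genes was 0.019. It was 0.46 on plain library totals and 1.48 when the libraries were scaled to the summed counts of 5 sperm structure classes, where DESeq2 called 1692 genes higher and 1 lower, the RIKEN transcript 6330403K07Rik. Under that scaling 205 of the 350 sperm class genes were lower while 145 were higher, against 9205 higher of all 10785. The 5 classes are among the sperm classes, and the scaling sets their summed counts level. For that reason this split cannot give the direction of the sperm classes. Class values are therefore given below as relative medians, the median log2 fold change of the tested members minus that of all genes tested, which a rescaling of the libraries leaves nearly unchanged. Each library was also left out in turn. Of the 12 sperm classes with at least 5 tested genes, 11 kept their relative median within 1.5 times of the value given. In contrast, 11 of 14 metabolic and 11 of 12 housekeeping classes did not, and such values are given below for the classes described. The limit is a ratio, so a smaller shift crosses it in a class near 0, and these counts do not rank the groups by stability. Translation factors crossed it by going from 0.22 to 0.02 without Ctrl-F1 replicate 1. The acrosome class stayed within it while going from -1.68 to -2.14 without Ctrl-F1 replicate 2. A class has no test of its own, and its counts are read against the background. DESeq2 called 2.5% of the genes with an adjusted p higher and 5.3% lower. Most classes hold fewer genes with a DESeq2 adjusted p than genes tested. Both KO-F1 libraries lay above both Ctrl-F1 libraries in 28.3% of tested genes and below both in 25.8%.

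**Figure D1:**
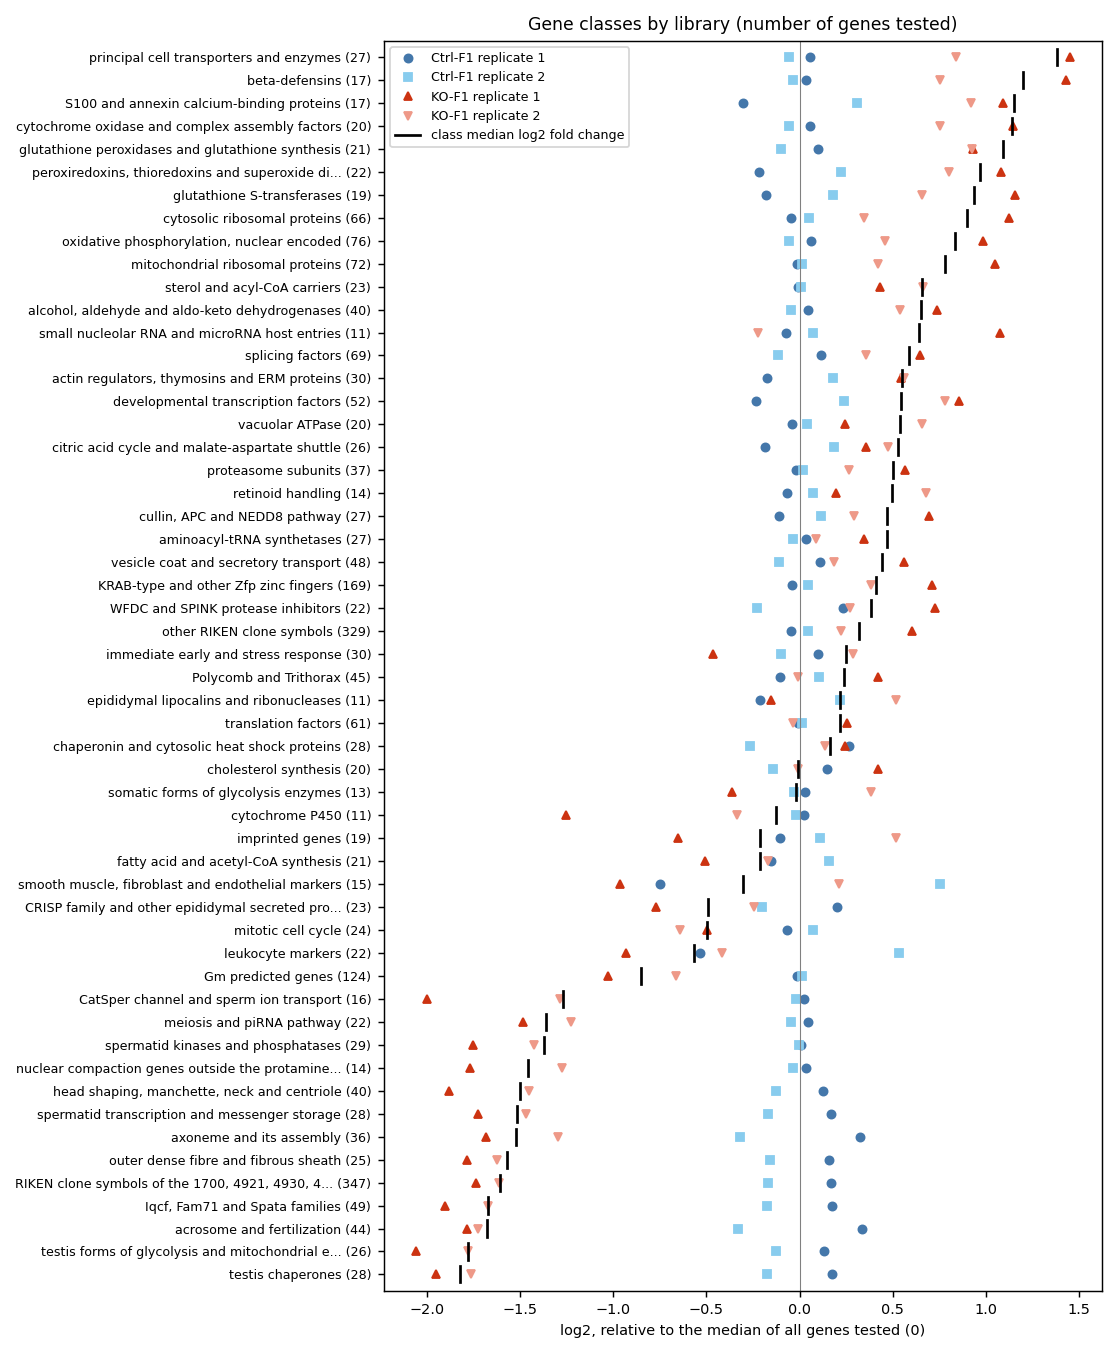
Relative log2 level of each gene class with at least 10 tested genes in each of the 4 libraries (x axis, log2 relative to the median of all genes, with the Ctrl-F1 mean at 0; coloured points are libraries, black bars the class median log2 fold change relative to that of all genes; numbers in parentheses are genes tested). The sperm classes form the lower block, where both KO-F1 libraries lie left of both Ctrl-F1 libraries, and the redox, respiration and ribosome classes lie to the right of both.

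Genes of the flagellum were lower throughout. The outer dense fibres and fibrous sheath are the stiff cytoskeletal casings of the sperm tail, and all 25 tested genes of this class were below their Ctrl-F1 level, with a relative median of -1.57; DESeq2 called 12 lower and 0 higher, and in 23 both KO-F1 libraries lay below both Ctrl-F1 libraries. Odf1, a core outer dense fibre protein, had 28113 and 50380 CPM (counts scaled to the TMM-adjusted library size) in Ctrl-F1 against 14784 and 9992 in KO-F1, a log2 fold change of -1.66 ± 0.56 (SE, edgeR). Akap4, the main anchoring protein of the fibrous sheath, had 1587 and 1030 CPM in Ctrl-F1 against 341 and 326 in KO-F1, a log2 fold change of -1.97 ± 0.42. Smcp, a cysteine-rich protein of the mitochondrial capsule, had 29282 and 40071 CPM against 15337 and 15046, and its change of -1.19 ± 0.50 was among the smaller ones of the class. In all of them both KO-F1 libraries lay below both Ctrl-F1 libraries. Among the 36 tested axonemal genes, which build the microtubule core of the tail, 34 were lower with a relative median of -1.52. Of the 23 with an adjusted p, DESeq2 called 4 lower. Among them were Tppp2, a tubulin polymerization factor, Meig1 and the dynein arm assembly factor Dnaaf1, with log2 fold changes from -1.43 ± 0.40 (Tppp2) to -1.92 ± 0.48 (Dnaaf1).

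Genes for the acrosome, the secretory cap that carries enzymes for fertilization, were lower by a similar amount. Of 44 tested members, 42 were below their Ctrl-F1 level (relative median -1.68). Of the 22 with an adjusted p, DESeq2 called 7 lower and 0 higher. The acrosomal protease gene Prss39 had 427 and 324 CPM in Ctrl-F1 against 98.2 and 98.6 in KO-F1, with a log2 fold change of -1.93 ± 0.40. Dkkl1, an acrosomal glycoprotein, had 388 and 158 CPM against 59.7 and 61.6, and the lipid flippase gene Atp8b3 had 673 and 397 CPM against 124 and 159. In each of these genes the higher KO-F1 library was below the lower Ctrl-F1 library. Head shaping, manchette, neck and centriole genes behaved likewise, with 39 of 40 lower, a relative median of -1.50 and 13 called lower. Spem1, needed for shedding of the cytoplasm, had 1235 and 1021 CPM in Ctrl-F1 against 214 and 318 in KO-F1 (log2 fold change -2.08 ± 0.42).

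Outside the protamine cluster, 10 of 14 tested nuclear compaction genes were lower (relative median -1.46) and 4 were called lower. These were Tnp1, encoding transition protein 1, the linker histone gene H1fnt, Hmgb4 and the histone variant gene H2afb1. Tnp1 had 2052 and 1346 CPM in Ctrl-F1 against 472 and 284 in KO-F1, a log2 fold change of -2.17 ± 0.46. For reference, the 4 genes of the protamine cluster had a relative median of -2.10. The other sperm classes with at least 10 tested genes, for chromatin, tail, acrosome, metabolism and signalling, had relative medians between -1.27 and -1.82.

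Energy supply genes moved apart by list. Spermatids use testis copies of many glycolytic and mitochondrial enzymes. In the list of these, 24 of 26 tested genes were lower, with a relative median of -1.78 and 11 called lower by DESeq2. The list also holds genes that are not testis copies, such as Hk1 and Crat. Hk1, its most abundant member, was called lower at 2505 and 2992 CPM in Ctrl-F1 against 861 and 989 in KO-F1. Gapdhs, the glycolytic dehydrogenase tied to the fibrous sheath, had 736 and 450 CPM in Ctrl-F1 against 134 and 90.2 in KO-F1, a log2 fold change of -2.40 ± 0.45. The testis lactate dehydrogenase gene Ldhc had 976 and 518 CPM against 148 and 198, and Pgk2, the testis phosphoglycerate kinase, had 1813 and 2703 CPM against 652 and 833. Crat, which moves acetyl groups onto carnitine, and Oxct2b, which uses ketone bodies, were called lower too, with log2 fold changes of -1.88 ± 0.42 and -1.76 ± 0.39. The somatic forms of glycolysis enzymes stood near the median of all genes (relative median -0.02, from -0.20 without Ctrl-F1 replicate 2 to 0.41 without KO-F1 replicate 1, with 6 higher and 7 lower of 13 tested), with Pkm at 533 and 684 CPM in Ctrl-F1 against 526 and 651 in KO-F1.

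Signalling and ion transport genes were lower too. Among 29 tested spermatid kinases and phosphatases 23 were below and 6 above their Ctrl-F1 level (relative median -1.37), and 10 were called lower. Tssk6 and Tssk1, testis serine kinases, had log2 fold changes of -1.81 ± 0.52 and -2.42 ± 0.55. Ppp3r2, the testis regulatory subunit of calcineurin, had 377 and 173 CPM in Ctrl-F1 against 63.2 and 55.0 in KO-F1. Of 16 tested genes for the CatSper calcium channel and other sperm ion transport, 13 were lower (relative median -1.27, and -1.92 without KO-F1 replicate 2) and 2 were called lower: Atp1b3, a sodium pump subunit, and Itpr3, a calcium release channel. Atp1a4, the sperm sodium pump, had 164 and 186 CPM against 27.9 and 71.3 and did not pass (DESeq2 adjusted p = 0.0125).

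Testis chaperones and ubiquitin-like genes had the lowest relative median of the sperm classes with at least 10 tested genes, -1.82, with all 28 tested members lower and 13 called lower. Hspb9, a small heat shock protein of the testis, had a log2 fold change of -1.46 ± 0.40, and Dnajb8 and Ubl4b had -2.01 ± 0.41 and -1.87 ± 0.39. Spermatid transcription and messenger storage genes were lower in 24 of 28 (relative median -1.51, 10 called lower), among them Spz1 at 2609 and 2099 CPM in Ctrl-F1 against 607 and 578 in KO-F1, and Fhl4 at 1759 and 1665 CPM against 515 and 551. Meiosis and piRNA genes, which act before the spermatid stage, were lower in 19 of 22 (relative median -1.36), but 0 of the 6 with a DESeq2 adjusted p were called. At an unadjusted edgeR p under 0.05, 7 of them were lower and 0 higher.

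Transcripts with clone or predicted-gene symbols differed by the origin of their symbols. Such a symbol does not show that the function is unknown, since Gm166 is Ccdc189 in RefSeq. Of the RIKEN symbols in clone series that stem largely from testis libraries (such as 1700027A15Rik and 4930544D05Rik), 314 of 347 tested were lower, with a relative median of -1.61, 41 called lower and 0 called higher. RIKEN symbols from other collections had a relative median of 0.32, with 200 higher and 129 lower. Of the 122 with a DESeq2 adjusted p, 3 were called higher and 7 lower, close to the background of 2.5% and 5.3%. The predicted Gm genes lay between, at -0.85. Without single libraries the other RIKEN symbols had relative medians of up to 0.69 (without KO-F1 replicate 2) and the Gm genes of -0.46 (without Ctrl-F1 replicate 1) and -0.54 (without Ctrl-F1 replicate 2). The Iqcf, Fam71 and Spata families, which hold many spermatid genes, were lower in 46 of 49 (relative median -1.67, 15 called lower).

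**Figure D2:**
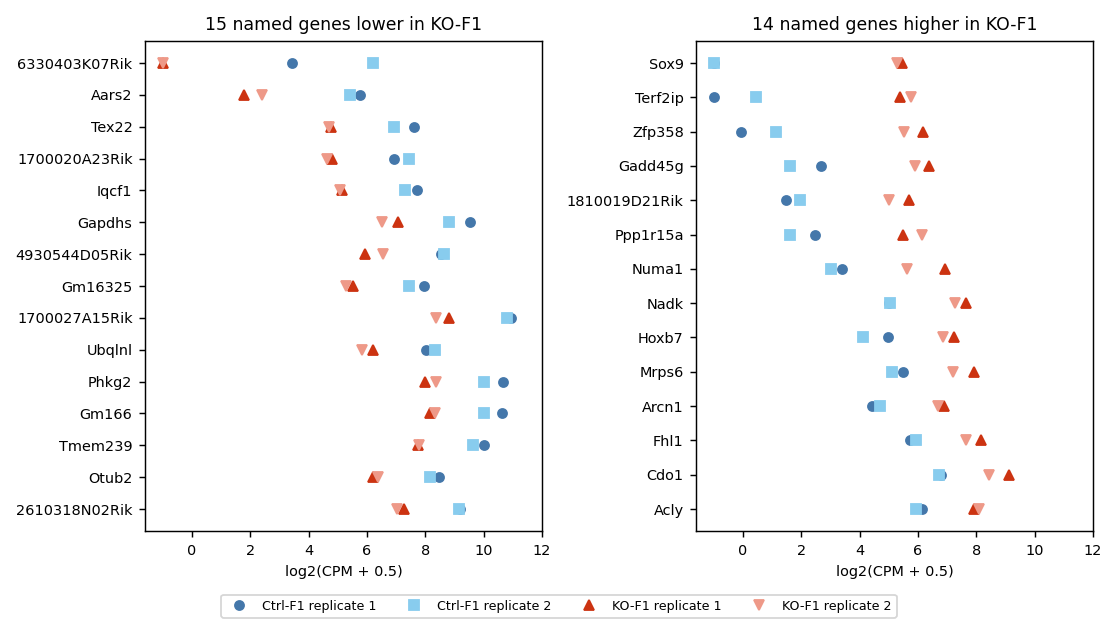
Levels of the named genes (log2 of CPM + 0.5, x axis) in the 4 libraries, with 15 genes called lower in KO-F1 on the left and 14 called higher on the right. In every row the 2 KO-F1 points lie on the same side of the 2 Ctrl-F1 points, which the rule for naming required.

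The 15 genes named lower by rule included genes of several sperm classes. They were Iqcf1, Tex22, 1700020A23Rik, 4930544D05Rik, 1700027A15Rik, Gm16325, Ubqlnl, Gapdhs, Aars2, 2610318N02Rik, Tmem239, Otub2, 6330403K07Rik, Gm166 and Phkg2, and each had an edgeR adjusted p of 0.14. Iqcf1, a calmodulin-binding sperm protein gene (chromosome 9, 106499967 to 106502250, GRCm38), had 211 and 159 CPM in Ctrl-F1 against 35 and 33.4 in KO-F1 (log2 fold change -2.43 ± 0.43). Phkg2, the testis and liver catalytic subunit of phosphorylase kinase, had 1610 and 1029 CPM against 256 and 329 (-2.17 ± 0.43). Aars2, the mitochondrial alanyl-tRNA synthetase gene, was the only synthetase gene called: it had 54.2 and 42.1 CPM against 2.94 and 4.84, while 18 of 27 tested synthetase genes were above their Ctrl-F1 level (relative median 0.47, but 0.12 without KO-F1 replicate 1 and 0.27 without Ctrl-F1 replicate 2). 6330403K07Rik had 23 and 87 counts in Ctrl-F1 and 0 in both KO-F1 libraries, at least 61.2-fold lower when the KO-F1 group is set at 3 counts in all. This bound rested on Ctrl-F1 replicate 2: it was 19.6-fold without that library, 139-fold without Ctrl-F1 replicate 1, and 24.5-fold and 36.7-fold without KO-F1 replicate 1 and 2, whose removal also raises the floor.

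Several of these genes overlap a neighbour, and the kit does not mark strand. Gm166 and Phkg2 overlap by 925 bases on chromosome 7 (GRCm38). Gapdhs overlaps Sbsn by 12118 bases on chromosome 7, and 4930544D05Rik lies inside Chrne on chromosome 11, with 1304 bases in common. Gm16325 overlaps 4930503B20Rik, also called lower, by 6527 bases on chromosome 3. Reads in these overlaps cannot be assigned to a strand, so the values of such partners may not be independent. Other genes lie beside each other without overlap: 1700027A15Rik (chromosome 1, 73016036 to 73025508) next to Tnp1 (73015074 to 73015899), and Tmem239 next to 1700020A23Rik on chromosome 2.

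Of the genes named higher, several were close to absent in Ctrl-F1. The transcription factor gene Sox9, which marks Sertoli cells and other epithelia, had 0 counts in both Ctrl-F1 libraries and 148 and 87 in KO-F1, at least 47.0-fold higher when the Ctrl-F1 group is set at 3 counts in all, and at least 16.4-fold and 30.6-fold without Ctrl-F1 replicate 1 and 2. Zfp358, a zinc finger gene, had 1 and 2 counts against 244 and 103, a ratio of 69.4 with a 95% counting interval of 23.5 to 338. Terf2ip, which encodes a telomere-bound protein, had 0 and 1 counts against 141 and 122, with a ratio of 158 and an interval of 28.1 to 6252. Both KO-F1 libraries held these transcripts and both Ctrl-F1 libraries lacked them or nearly so. With so few counts the ratios moved with the library left out, from 36.3 (without Ctrl-F1 replicate 1) to 135 (without Ctrl-F1 replicate 2) for Zfp358, and to 55.0 without Ctrl-F1 replicate 1 and at least 34.2 without Ctrl-F1 replicate 2 for Terf2ip. The other 21 members of the Sertoli and Leydig cell list did not follow Sox9 as a group: of 4 tested members 1, Sox9 itself, was called higher and 3 were lower, 13 of the 22 members were at 0 counts in all 4 libraries, Amh among them, and the list took 0.0196% and 0.016% of counts in Ctrl-F1 against 0.0131% and 0.028% in KO-F1.

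The other genes named higher were Gadd45g, Nadk, Ppp1r15a, 1810019D21Rik, Numa1, Mrps6, Hoxb7, Fhl1, Arcn1, Acly and Cdo1. Their edgeR log2 fold changes ran from 1.97 ± 0.40 for Acly, the enzyme that makes cytosolic acetyl-CoA, to 3.99 ± 0.67 for the growth arrest gene Gadd45g. Nadk, the NAD kinase (chromosome 4, 155562381 to 155591001), had 31.6 and 32.0 CPM in Ctrl-F1 against 198 and 154 in KO-F1, and Cdo1, which oxidizes cysteine, had 110 and 104 CPM against 555 and 348. Numa1, a spindle pole protein gene, had 9.93 and 7.58 CPM against 120 and 48.4, with the KO-F1 libraries well apart from each other. Ppp1r15a overlaps Tulp2 by 730 bases on chromosome 7, and Mrps6 overlaps Slc5a3 by 29138 bases on chromosome 16.

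The epididymal lists were uneven. Defensins of the beta family are small secreted antimicrobial peptides that coat spermatozoa. Of 17 tested, 13 were higher (relative median 1.20, and 0.56 without the genes called by DESeq2). Of the 10 with a DESeq2 adjusted p, 4 were called higher. Defb28, Defb2, Defb43 and Defb9 had edgeR log2 fold changes of 2.79 ± 0.61, 1.94 ± 0.58, 2.07 ± 0.47 and 2.26 ± 0.59. As a class they took 0.150% and 0.0839% of counts in Ctrl-F1 against 1.01% and 0.358% in KO-F1. Principal cell transporters and enzymes were higher in 18 of 27 (relative median 1.38), and DESeq2 called 8 higher and 0 lower. Gpx3 dominated this list, with 9009 and 9042 CPM in Ctrl-F1 against 55940 and 28571 in KO-F1 (log2 fold change 2.23 ± 0.57), and the relative median of the list was -0.01 without the called genes, 0.69 without Ctrl-F1 replicate 1 and 0.78 without Ctrl-F1 replicate 2. The other CPM values of called members included 392 and 317 against 1392 and 930 for Slc9a3r1, which tethers the sodium/proton exchanger, and 30.7 and 16.9 against 151 and 115 for the homeobox gene Hoxb7.

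Other epithelial and secretory lists were mixed. Keratins, intermediate filament proteins of epithelia, were higher in 6 of 7 tested (relative median 1.38), with the hair keratin gene Krt32 called. The keratin pair of simple epithelia had 27.1 and 58.1 CPM in Ctrl-F1 against 133 and 89.8 in KO-F1 for Krt8, and 91.2 and 59.8 CPM against 263 and 161 for Krt18, neither of them called. Other epithelial markers, picked after their values were seen, were not higher: the adhesion genes Epcam (249 and 149 CPM in Ctrl-F1 against 85.5 and 189 in KO-F1) and Cdh1 (94.8 and 86.8 against 43.8 and 65.6) and the principal cell water channel gene Aqp9 (90.3 and 85.1 against 72.0 and 82.7). The CRISP family and other secreted proteins had a relative median of -0.49, with 8 higher and 15 lower of 23 tested (-0.16 without KO-F1 replicate 1 and -0.88 without KO-F1 replicate 2), although Cd52, a lipid-anchored glycoprotein passed to sperm, was called higher at 7358 and 3024 CPM against 25070 and 11134. Crisp1, the main secreted CRISP, had 19992 and 6903 CPM against 7533 and 10592, with overlapping groups. Lipocalins and epididymal ribonucleases had a relative median of 0.22, with 6 higher and 5 lower, which turned to -0.08 without Ctrl-F1 replicate 1 and -0.50 without KO-F1 replicate 2, and Lcn12 was called higher while Ptgds, at 1429 and 997 CPM against 583 and 1215, overlapped. Protease inhibitors of the WFDC and SPINK families were higher in 16 of 22 (relative median 0.38, 0.91 without Ctrl-F1 replicate 1 and 0.92 without KO-F1 replicate 2), with 1 called higher, Wfdc15b. Clear cell and basal cell markers, with 6 tested, had a relative median of 0.23 against a spread between replicates of 0.66 (SD), and ran from -0.16 without KO-F1 replicate 2 to 1.13 without Ctrl-F1 replicate 2. The epididymal lists together took 6.78% and 4.05% of counts in Ctrl-F1 against 16.0% and 9.15% in KO-F1, and 5.95% and 3.34% against 9.15% and 6.04% without Gpx3. What part these transcripts have in the changes of other classes was not tested.

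**Figure D3:**
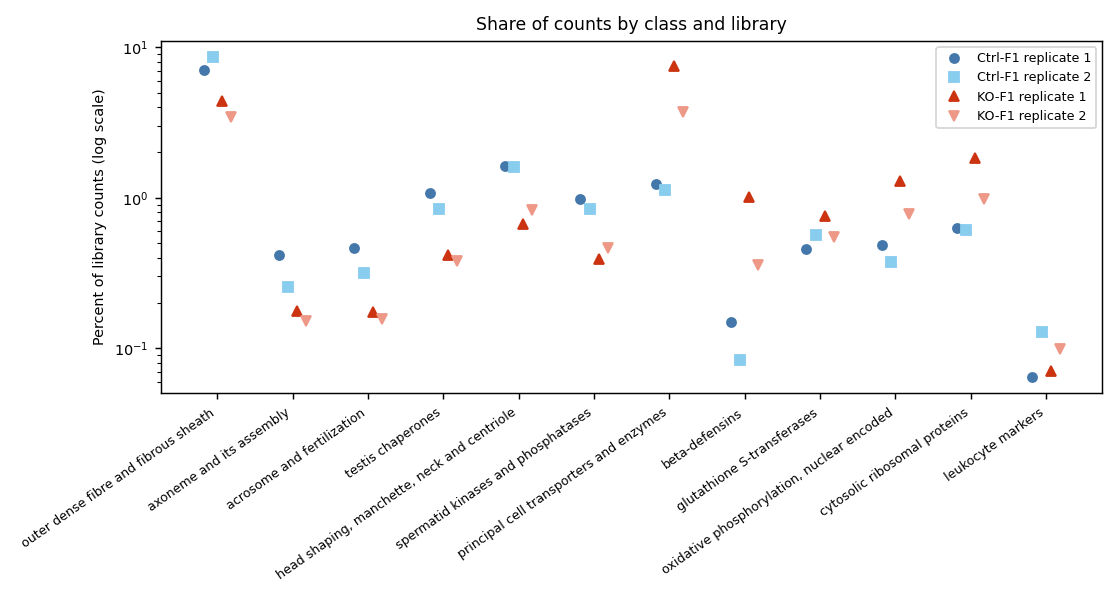
Percent of all counts of a library (y axis, log scale) taken by 12 classes in the 4 libraries. The 6 sperm classes on the left were lower in both KO-F1 libraries, the principal cell, defensin, respiration and ribosome classes were higher in both, and the glutathione S-transferases and the leukocyte markers overlapped between groups.

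Markers of cell types from outside the epididymal epithelium showed no difference beyond the replicate spread in either list with at least 5 tested genes. Of 22 tested leukocyte markers 2 were above and 20 below their Ctrl-F1 level, with a relative median of -0.57 against a spread between replicates of 0.59 (SD), and the list took 0.0639% and 0.129% of counts in Ctrl-F1 against 0.0700% and 0.0984% in KO-F1. Ptprc, which marks all leukocytes, had 0 and 15 counts against 3 and 2. Smooth muscle, fibroblast and endothelial markers had a relative median of -0.30 against a spread of 0.95, and took 0.0649% and 0.139% of counts against 0.0820% and 0.150%. Without single libraries the leukocyte value ran from -1.20 (without Ctrl-F1 replicate 1) to -0.19 (without Ctrl-F1 replicate 2), and the smooth muscle value from -1.10 (without KO-F1 replicate 2) to 0.49 (without Ctrl-F1 replicate 2). Erythrocyte markers summed to between 2 and 22 counts per library, and 5 of the 8 were at 0 in all 4.

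Redox metabolism stood higher in several linked families. Peroxiredoxins, thioredoxins and superoxide dismutases, which remove peroxides and superoxide, were higher in 18 of 22 (relative median 0.97), and Prdx1 and Sod2 were called higher with log2 fold changes of 1.42 ± 0.39 and 1.57 ± 0.42. Prdx1 had 148 and 156 CPM in Ctrl-F1 against 468 and 347 in KO-F1. Glutathione peroxidases and glutathione synthesis genes were higher in 12 of 21 (relative median 1.09), but only Gpx3, which is counted in the principal cell list too, was called. Gpx4, the phospholipid peroxidase that sperm also use as a structural protein, went the other way, at 219 and 228 CPM against 133 and 146, and did not pass (DESeq2 adjusted p = 0.29). Glutathione S-transferases, which attach glutathione to reactive compounds, were higher in 14 of 19 (relative median 0.93). Gstm1, Gstm2, Gstm7 and Gstt3 were called higher, with log2 fold changes from 1.34 ± 0.46 to 1.87 ± 0.47, and Gstm5 was called lower at 3670 and 5545 CPM in Ctrl-F1 against 1769 and 2044 in KO-F1. The Gstm genes are near-identical in parts, so reads may be split between them. The size of these medians depended on Ctrl-F1 replicate 1: without it they were 0.46 for the peroxiredoxin class, 0.64 for the glutathione peroxidases and 0.28 for the glutathione S-transferases.

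Other oxidoreductases and lipid carriers were higher in part. Alcohol, aldehyde and aldo-keto dehydrogenases were higher in 30 of 40 (relative median 0.65), with Aldh1a1, Adh5, Cbr1 and Qdpr called higher. Aldh1a1, which makes retinoic acid, had 197 and 129 CPM in Ctrl-F1 against 600 and 407 in KO-F1 (log2 fold change 1.62 ± 0.43). Sterol and acyl-CoA carriers were higher in 15 of 23, and 5 were called higher. Their relative median was 0.65, with 0.43 without Ctrl-F1 replicate 1 and 0.21 without the called genes. Among the called carriers Scp2, a sterol carrier, had 53.7 and 57.3 CPM against 302 and 168. Acbd7, an acyl-CoA binding protein gene, had 148 and 98.6 against 704 and 344. Fatty acid and acetyl-CoA synthesis had a relative median of -0.22 (-0.48 without Ctrl-F1 replicate 2 and -0.50 without KO-F1 replicate 2), with Acly, Acsl4 and Mid1ip1 called higher and Acsl1, at 724 and 984 CPM against 294 and 315, called lower. Cholesterol synthesis stood at -0.01 (0.54 without KO-F1 replicate 2), with 10 higher and 10 lower and 0 called by DESeq2. Polyamine metabolism, with 9 tested genes, had a relative median of 1.44, and Sat1, which acetylates polyamines, and Adi1, of the methionine salvage pathway, were called higher. The polyamine value was 0.38 without Ctrl-F1 replicate 1, 0.80 without KO-F1 replicate 1 and 0.35 without the called genes.

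Mitochondrial respiration was higher through many small differences. Of 76 tested nuclear genes of oxidative phosphorylation, 69 were higher (relative median 0.84) and in 52 both KO-F1 libraries lay above both Ctrl-F1 libraries, yet only Cox8a was called, at 239 and 275 CPM in Ctrl-F1 against 1095 and 690 in KO-F1 (log2 fold change 1.80 ± 0.42). Cox8a was 1 of 68 genes of the class with a DESeq2 adjusted p, a share not above the background of 2.5%. Assembly factors of cytochrome oxidase and other complexes were higher in 13 of 20 (relative median 1.14). Their relative median was 0.35 with at least 10 counts in every library. Of the 7 with a DESeq2 adjusted p, Coa3 and Cox14 were called higher. The citric acid cycle and malate-aspartate shuttle was higher in 23 of 26 (relative median 0.53, 0.25 without Ctrl-F1 replicate 1), and Got2, the mitochondrial aspartate transaminase, was called higher at 49.2 and 60.7 CPM against 267 and 178. The class deviations were larger in KO-F1 replicate 1 than in replicate 2 for oxidative phosphorylation, 0.98 and 0.46 on the log2 scale.

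Ribosomal protein transcripts moved in the same way. Cytosolic ribosomal proteins were higher in 62 of 66 (relative median 0.90, 0.54 without KO-F1 replicate 1) and took 0.625% and 0.608% of counts in Ctrl-F1 against 1.84% and 0.980% in KO-F1; 4 were called higher, and 44 had both KO-F1 libraries above both Ctrl-F1 libraries. Rpl14 had 88.4 and 96.1 CPM in Ctrl-F1 against 451 and 263 in KO-F1 (log2 fold change 1.95 ± 0.44), while Rpl41 overlapped between groups at 3112 and 3723 against 5491 and 3012. Ribosomal protein genes have many processed copies, whose reads may be lost or split. Mitochondrial ribosomal proteins were higher in 60 of 72 (relative median 0.78, 1.23 without KO-F1 replicate 2), with Mrps6 called higher at 44.7 and 33.7 CPM against 240 and 146. Translation factors stood closer to the median of all genes, at 0.22 with 37 of 61 higher (0.02 without Ctrl-F1 replicate 1, 0.06 without KO-F1 replicate 1 and 0.39 without KO-F1 replicate 2), and Eef1a1 was the member called, at 880 and 1151 CPM against 3528 and 1717. Mrps6 and Eef1a1 were 1 of 41 and 1 of 44 members with a DESeq2 adjusted p, shares not above the background of 2.5%. Splicing factors were higher in 51 of 69 (relative median 0.59, 0.38 without Ctrl-F1 replicate 2), with 0 called by DESeq2. At an unadjusted edgeR p under 0.05, 10 splicing factors were higher and 0 lower.

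Genes of protein turnover, the cytoskeleton and calcium binding were higher as well. Proteasome subunits were higher in 31 of 37 (relative median 0.50, 2 called higher) and the cullin, APC and NEDD8 pathway in 19 of 27 (0.47, 3 called higher). Skp1a, the adaptor of cullin ligases, had 74.5 and 61.5 CPM in Ctrl-F1 against 282 and 249 in KO-F1. Actin regulators, thymosins and ERM proteins were higher in 25 of 30 (0.55), with 6 called higher and 2 lower. Tmsb4x, the actin-binding thymosin, had 547 and 692 CPM against 2178 and 1431, and Ezr, which links actin to the membrane, had 144 and 80.9 against 395 and 358, whereas the anchoring protein gene Akap12 was called lower at 1994 and 2718 CPM against 918 and 952. S100 and annexin proteins were higher in 15 of 17 (relative median 1.15), with S100a11 called higher. Without Ctrl-F1 replicate 1 the values were 0.18 for the cullin pathway, 0.31 for the actin regulators, 0.65 for the S100 and annexin proteins and 0.12 for the vacuolar ATPase. Without KO-F1 replicate 2 the proteasome stood at 0.76 and the cullin pathway at 0.96, without Ctrl-F1 replicate 2 the actin regulators stood at 0.87, and without KO-F1 replicate 1 the vacuolar ATPase stood at 0.85. The vacuolar ATPase (0.54), which acidifies vesicles, and the vesicle coats (0.44) had positive relative medians too.

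Regulatory genes were mixed. Developmental transcription factors, which pattern tissues and mark their origin, were higher in 34 of 52 (relative median 0.54, 1.21 without Ctrl-F1 replicate 2), and Sox9, Hoxb7 and Hoxb6 were called higher while Hoxa4 and Tbx19 were called lower. Hoxb6 had 10.8 and 43.0 CPM in Ctrl-F1 against 184 and 85.8 in KO-F1, and Hoxa4, which spermatids also express, had 333 and 417 CPM against 115 and 165. In the immediate early and stress response class (relative median 0.25, 17 of 30 higher) the called genes were Atf4, the translation-controlled stress factor, Gadd45g and Ppp1r15a, which directs dephosphorylation of eIF2alpha. Ppp1r15a had 4.96 and 2.53 CPM in Ctrl-F1 against 44.7 and 70.0 in KO-F1, and Atf4 had 56.0 and 43.8 CPM against 174 and 139. The direction of the class as a whole turned with KO-F1 replicate 2: its relative median was -0.41 without that library, 0.44 without KO-F1 replicate 1, and 0.11 and 0.01 without Ctrl-F1 replicate 1 and 2.

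Among chromatin genes, those of Polycomb and Trithorax stayed close to the median of all genes, and the few canonical histones tested stood above it. Polycomb and Trithorax genes had a relative median of 0.24 (29 of 45 higher), with 0 called by DESeq2, 5 higher and 2 lower at an unadjusted edgeR p under 0.05 (0.07 without Ctrl-F1 replicate 1, 0.13 without KO-F1 replicate 1 and 0.55 without KO-F1 replicate 2). Imprinted genes stood at -0.21 against a spread between replicates of 0.59 (0.34 without Ctrl-F1 replicate 1, 0.18 without KO-F1 replicate 1 and -0.55 without KO-F1 replicate 2), with Gnas, the stimulatory G protein subunit, called higher at 496 and 717 CPM in Ctrl-F1 against 2248 and 1423 in KO-F1. Of 65 canonical histone genes only 7 were tested, and all 7 were higher (relative median 1.46). DESeq2 called 0 of the 3 with an adjusted p, and 3 were higher at an unadjusted edgeR p under 0.05. Mitotic cell cycle genes had a relative median of -0.50, which became 0.37 without Ctrl-F1 replicate 1 and -0.27 without Ctrl-F1 replicate 2.

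Pairs of paralogs set the split between germ cell and somatic transcripts side by side. Many testis copies, such as Ldhc, Pgk2 and Hspb9, are also members of the sperm classes above. The pairs therefore recount part of those values and are not separate support for them. Many housekeeping genes have a further copy that takes over in spermatids, often because the ubiquitous copy is X-linked and silenced in meiosis. In 31 of 37 such pairs both copies were tested, and the somatic copy had the higher log2 fold change in 30. The testis copy was below its Ctrl-F1 level in 31 of 31, with 18 called lower and 28 with both KO-F1 libraries below both Ctrl-F1 libraries. The somatic copy was above its Ctrl-F1 level in 25, with 5 called higher: Ldhb, Cox8a, Dbi, Fhl1 and Hspb8. Median log2 fold changes were 1.14 for the somatic and -1.73 for the testis copies. Ldhb and Ldhc, for example, had mean levels of 169 and 747 CPM in Ctrl-F1 against 456 and 173 in KO-F1, so that the order of this pair was turned, although levels of different genes are not corrected for transcript length. Cox8a and Cox8c had log2 fold changes of 1.80 and -2.10, and Dbi and Dbil5, acyl-CoA binding proteins, 2.1 and -1.54. Calr and Calr3 were the exception, at -0.45 and -0.23, with Calr3 near 7.27 CPM in Ctrl-F1. On scaling to the sperm structure classes, which moves every gene of a library alike, 25 of the 31 testis copies were lower and all 31 somatic copies higher. Because that scaling sets the summed counts of those classes level, these directions are relative to those classes only.

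**Figure D4:**
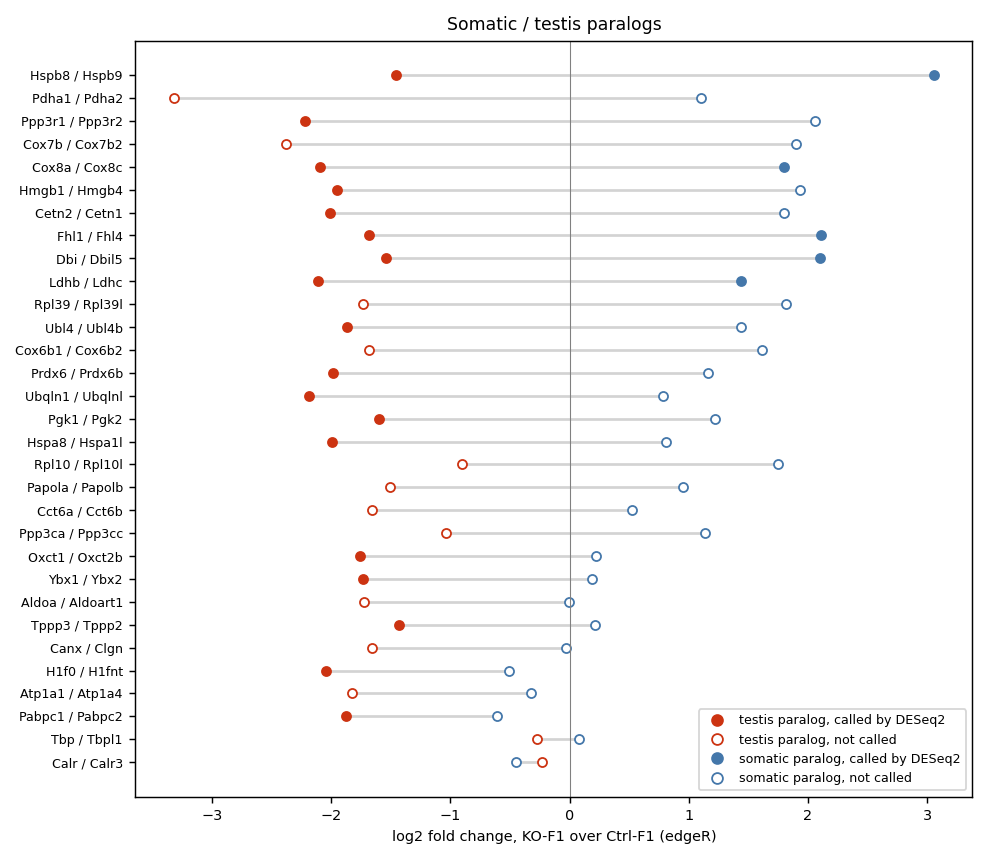
Log2 fold change (x axis, edgeR, KO-F1 over Ctrl-F1) of the somatic copy (blue) and the testis copy (red) of 31 paralog pairs, ordered by the gap between them, under TMM scaling; filled points were called by DESeq2. The red points lie left of 0 in all 31 pairs and the blue points lie right of the red ones in 30.

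The promoters of the called genes were compared with those of all tested genes, in windows from 250 bases before to 50 bases after the start (RefSeq, GRCm38.p6). A window was found for 8662 of 10785 tested genes, 217 of 265 called lower and 108 of 125 called higher. The GC box GGGCGG, or CCGCCC on the other strand, stood in 45.2% of the windows of lower genes, 60.2% of higher genes and 63.3% of all tested genes. Median GC content was 56.3%, 60.3% and 60.7% in the same order. The short cAMP response element core TGACG, or CGTCA, was in 23.0%, 38.9% and 31.6%, and the full palindrome TGACGTCA, which contains both short forms, in 2.76%, 3.70% and 3.17%. TATAAA, or TTTATA, was in 8.29%, 11.1% and 6.92%. These matches describe the letters of the windows and are no evidence of binding.

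The windows below are examples from a paralog pair and from the called genes. They run 5′ to 3′ on the strand of the gene, with the motifs above in capitals. They do not stand for the called genes: a GC box was in 60.2% of windows of higher genes against 63.3% of all tested genes. Pgk1 (chrX:106186850-106187149, plus strand, 66.7% GC) is the somatic and Pgk2 (chr17:40208560-40208859, minus strand, 43.0% GC) the testis phosphoglycerate kinase gene. Pgk1 had 8.57 and 10.1 CPM in Ctrl-F1 against 22.9 and 20.7 in KO-F1, the opposite order to Pgk2, and was not called. Otub2 (chr12:103376644-103376943, plus strand), a ubiquitin protease gene, was called lower. Mrps6 (chr16:92058086-92058385, plus strand) and Ppp1r15a (chr7:45526219-45526518, minus strand) were called higher.
Pgk1: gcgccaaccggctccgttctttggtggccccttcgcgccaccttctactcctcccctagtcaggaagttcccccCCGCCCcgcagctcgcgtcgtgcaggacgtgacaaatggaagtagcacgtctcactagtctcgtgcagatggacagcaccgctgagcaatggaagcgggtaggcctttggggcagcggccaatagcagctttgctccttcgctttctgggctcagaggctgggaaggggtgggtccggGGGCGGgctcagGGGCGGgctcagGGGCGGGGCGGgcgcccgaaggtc
Pgk2: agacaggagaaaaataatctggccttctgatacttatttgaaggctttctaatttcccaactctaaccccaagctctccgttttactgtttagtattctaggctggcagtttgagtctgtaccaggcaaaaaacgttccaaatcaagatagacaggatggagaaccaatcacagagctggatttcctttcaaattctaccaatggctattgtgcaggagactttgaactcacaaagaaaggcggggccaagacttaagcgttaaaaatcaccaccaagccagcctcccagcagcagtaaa
Otub2: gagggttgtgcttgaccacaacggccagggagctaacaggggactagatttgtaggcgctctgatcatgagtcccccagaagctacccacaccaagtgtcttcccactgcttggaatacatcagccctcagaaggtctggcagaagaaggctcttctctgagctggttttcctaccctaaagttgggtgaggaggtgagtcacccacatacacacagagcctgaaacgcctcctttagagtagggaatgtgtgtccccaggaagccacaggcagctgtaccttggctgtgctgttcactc
Mrps6: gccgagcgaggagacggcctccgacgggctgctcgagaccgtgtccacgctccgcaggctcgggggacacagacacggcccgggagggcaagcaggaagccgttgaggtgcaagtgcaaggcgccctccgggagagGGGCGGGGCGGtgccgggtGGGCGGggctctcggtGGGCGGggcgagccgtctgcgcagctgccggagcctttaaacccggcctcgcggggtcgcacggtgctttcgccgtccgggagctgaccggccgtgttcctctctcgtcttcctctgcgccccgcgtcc
Ppp1r15a: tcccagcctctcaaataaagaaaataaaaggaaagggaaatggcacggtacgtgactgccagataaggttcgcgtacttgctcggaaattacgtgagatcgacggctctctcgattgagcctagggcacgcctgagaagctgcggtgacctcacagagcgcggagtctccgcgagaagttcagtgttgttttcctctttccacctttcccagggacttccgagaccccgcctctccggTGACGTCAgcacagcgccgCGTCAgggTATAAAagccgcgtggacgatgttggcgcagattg
The Pgk1 window holds 5 GC boxes and the Pgk2 window none, the Mrps6 window holds 4, the Otub2 window holds none of the motifs, and the Ppp1r15a window holds the full response element and a TATAAA match that begins 16 bases past the annotated start. Across the 20 pairs with both windows, the median GC content was 62.2% for somatic and 56.3% for testis copies, and the somatic copy had the higher value in 13. A GC box was in 10 of the somatic and 8 of the testis windows, so the Pgk1 and Pgk2 windows do not stand for the pairs in this respect.

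The fold changes also followed tissue bias measured in other libraries. Genes were binned by the log2 difference between 2 libraries of KO-F2 spermatozoa and 4 libraries of F1 liver. In the most sperm-biased bin, over 5 on this scale, 737 of 791 tested genes were lower and 54 higher, with a relative median of -1.61. This bin held 218 of the 265 genes called lower (82.3%) but 722 of the 5000 genes with an adjusted p (14.4%), and 93 of the 218 were members of the sperm lists. It also held 15 of the 125 genes called higher, of which 9 were in the epididymal lists (among them Cd52, Gpx3, Lcn12, Pnmt, Wfdc15b and the 4 called beta-defensins). The next bin, 2 to 5, had a relative median of -0.84, genes within 2 had 0.28, and both liver-biased bins had 0.52 to 0.53 (0.33 without KO-F1 replicate 2 in the bin over 5). Liver-biased genes over 5 took 0.243% and 0.243% of counts in Ctrl-F1 against 0.403% and 0.376% in KO-F1.

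**Figure D5:**
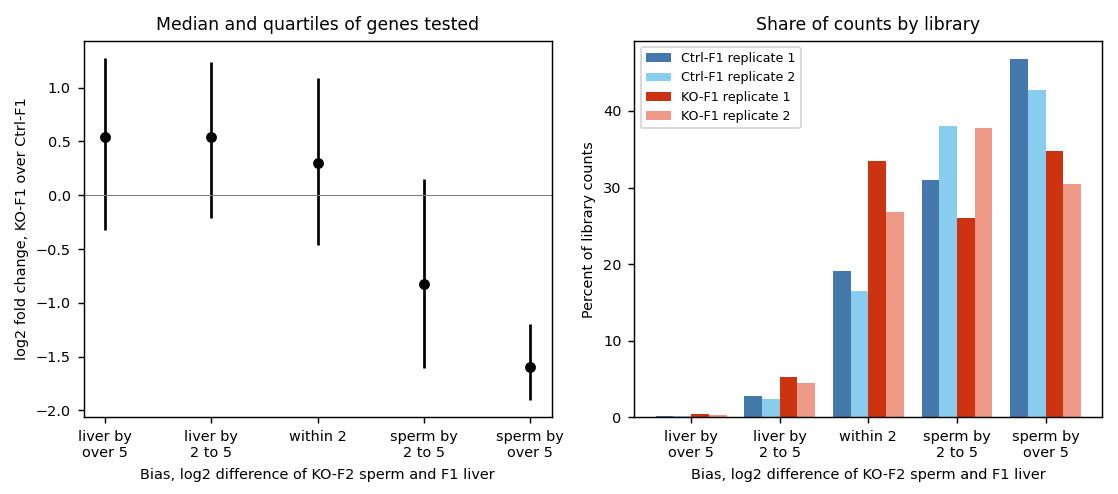
Left, median (point) and quartiles (line) of the edgeR log2 fold change of tested genes in 5 bins of tissue bias. Right, percent of each library's counts in the same bins, with the y axis from 0: the most sperm-biased bin takes 46.8% and 42.8% of counts in Ctrl-F1 against 34.8% and 30.5% in KO-F1, and the unbiased bin takes 19.1% and 16.5% against 33.5% and 26.8%.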

How the data were processed

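The analysis used 4 spermatozoa libraries, for which the authors deposited counts of uniquely mapped reads by gene symbol. Per the study's methods, cDNA was made with the SMART-Seq v4 kit, and 75-base single-end reads were aligned to GRCm38/mm10 with HISAT2 2.1.0 and counted with featureCounts; the annotation and strand setting are not given in the sources used here. Genes passing filterByExpr were tested with the quasi-likelihood test of edgeR 4.0.16 (TMM scaling, design with group only), and DESeq2 1.42.0 was run on the same counts as an alternative, in R 4.3.3. A call needed a 2-fold change and an adjusted p (Benjamini-Hochberg) below 0.01. The SE of an edgeR log2 fold change was derived from its F statistic. CPM used TMM-scaled library sizes.

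Gene classes, paralog pairs and markers were written as symbol lists, and the comparison and lists were chosen with earlier results of these data known. The rule for named genes took in each direction the 15 genes called by DESeq2 with both KO-F1 libraries on one side of both Ctrl-F1 libraries, a mean of at least 20 CPM and the smallest edgeR p, and other named genes are called class members, the most abundant members of a class or members of a pair. Bins of tissue bias came from KO-F2 spermatozoa and F1 liver libraries of the same series. The study's methods call the replicates independent biological ones, and p-values measure the spread between these libraries. On simulated data with 200 genes changed 4-fold among 9722 in this design, edgeR recovered 5.5% and DESeq2 23% of them. Of 12 edgeR calls 1 was false, and of 51 DESeq2 calls 5 were false. The changed genes were drawn from the more abundant ones, with as many raised as lowered, and no shift of whole classes was simulated. Replicate numbers do not pair the libraries. Results for some genes are not reported here.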

Additional observations from a re-analysis of the deposited data

How the results depend on the processing

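The 0 calls of edgeR stayed at 0 with an adjusted p under 0.05, without the fold threshold, with other scalings, thinned counts, no Rn45s, all 3 sperm groups in 1 model and without any single library (range 0 to 0), and became 113 without the filter on low counts and 200 with at least 10 counts in every library. The 390 DESeq2 calls became 830 at an adjusted p under 0.05, 253 without independent filtering, 339 on thinned counts and 1693 on scaling to the sperm structure classes, and ranged from 37 to 183 without single libraries. Same-numbered libraries did not deviate together (correlation of deviations -0.009 over 10785 genes); with the replicate block edgeR called 0 and DESeq2 313 genes. Of 64 class and bin medians, 59 to 64 kept their direction under each alternative. The exceptions larger than the replicate spread were principal cell transporters and enzymes without their called genes (-0.0112), the Zfp zinc fingers with at least 10 counts in every library (-0.123) and mitotic cell cycle genes (-0.58 to 0.37 without single libraries). Leaving out a library moved 23 (Ctrl-F1 replicate 1), 31 (Ctrl-F1 replicate 2), 15 (KO-F1 replicate 1) and 30 (KO-F1 replicate 2) of the 64 by more than the replicate spread. Leaving out Gpx3, an alternative chosen after seeing the data, moved the KO-F1 to Ctrl-F1 ratio of metabolic shares from 2.97 to 1.80 and of epididymal shares from 2.32 to 1.64. The causes were not tested, except that fewer genes enter the filtered fits. At this depth the floor of 3 counts equals 1.08 to 2.00 CPM.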

Other observations

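Genes on chromosome X stood above those on each autosome. The 292 tested X-linked genes had a relative median log2 fold change of 0.59. The relative medians of the autosomes ran from -0.12 on chromosome 17 to 0.23 on chromosome 13. DESeq2 called 11 X-linked genes higher and 3 lower, against 2.5% higher and 5.3% lower of all genes with an adjusted p. X-linked genes with an adjusted p were not counted. Chromosome medians come from the main fit only and were not recomputed without single libraries. Chromosome Y, with 3 tested genes, had a relative median of 0.78. Olfactory receptors, of which 1122 were in the files, had 3 tested members and all were lower, at a relative median of -0.995. Cytochrome P450 genes, with 11 tested of 100, had a relative median of -0.13. Mast cell markers summed to 126 to 283 counts per library, with 2 tested members. Cytosolic chaperonins and heat shock proteins, unlike the testis chaperones, had a relative median of 0.16 with Hspb8 called higher, which ran from -0.26 without Ctrl-F1 replicate 2 to 0.57 without Ctrl-F1 replicate 1.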
